A study of Mus musculus with 10 samples.

Results

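The genes described here are 10 collagens that do not build the banded fibrils of bone or cartilage but form sheets, beaded filaments or coats around fibrils. They were taken by symbol from the gene table of a study of knee articular cartilage, which held 35705 genes, 13841 of them with a mean level of at least 1 TPM (a share of all transcripts in the library, corrected for their length). All 10 passed that minimum. They are the network-forming chains Col4a1 and Col4a2, the beaded-filament chains Col6a1, Col6a2 and Col6a3, the fibril-associated collagens Col12a1, Col14a1 and Col16a1, and the multiplexins Col15a1 and Col18a1. The study compared 5 wild-type control mice with 5 Mir324-null mice, which lack the gene of the microRNA miR-324, and neither group was treated. Each library came from the medial knee cartilage cap of 1 mouse. Age, sex, litter, strain and the way the null allele was made were not given in the sources used here. The level of the microRNA was not analysed here, which leaves the genotype as labelled.

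Collagen IV is the sheet-forming collagen of basement membranes, the thin matrix layers under endothelium and around muscle, fat and nerve. Its most common trimer joins α1 and α2 chains, which are encoded by a head-to-head gene pair. Collagen VI makes beaded microfilaments close to cells, and in cartilage it marks the pericellular matrix around each chondrocyte. Its standard trimer holds 1 chain from each of Col6a1, Col6a2 and Col6a3. Collagens XII, XIV and XVI sit on the surface of fibrils or filaments and are known from tendon, skin, perichondrium and other dense connective tissue. Collagens XV and XVIII lie at basement membrane zones, and the end of the collagen XVIII chain can be released as endostatin, an inhibitor of vessel growth.

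The libraries carried RNA of several tissues. Haemoglobin genes took 11.2% to 19.7% of the TPM in wild-type and 15.8% to 26.1% in null libraries. The defining cartilage genes were present, with Col2a1 at a mean of 91.4 TPM in controls and 59 TPM in null mice and Acan at 146 and 72 TPM, while Matn3 was at 0.156 and 0.275 TPM. Wild-type replicate 1 stood apart on the first principal component, which held 26.7% of the variance, at -54.8 against -12.1 to 30.1 in the other libraries. It also had the lowest haemoglobin share. Genotype changes of the collagens that rest on it are given with and without it. The partner lists, the marker lists and the genes of similar course are given only with it. In whole tissue, fewer cells of a type and less RNA per cell cannot be told apart.

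The mature strands of miR-324 are shown because their loss defines the null group, and a messenger RNA is a candidate for repression where it holds the complement of a seed. The capitals mark the seed, bases 2 to 8 from the 5′ end. Both sequences are those of RefSeq (GRCm38.p6), on the plus strand of chromosome 11 at chr11:70012060-70012082 and chr11:70012095-70012114.
mmu-miR-324-5p: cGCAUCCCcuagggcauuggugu
mmu-miR-324-3p: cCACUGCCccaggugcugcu

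The site GGGATGC for miR-324-5p was in the longest annotated 3′ UTR of 8.5% of 12601 coding genes tested, and in 0 of the 10 collagens. The site GGCAGTG for miR-324-3p was in 15.4% of those genes and in 1 of the 10 collagens. That gene was Col12a1, whose 3′ UTR of 2178 bases held it at bases 187 to 193 and again at bases 1330 to 1336. Only the second match was followed by the adenosine that extends a 7-base match. Both are shown with their surroundings, the match in capitals. A match is a description of the letters and does not show binding. The 3′ UTR searched need not be that of the most abundant transcript. For Col6a2 it was that of Col6a2-202, which held 21.1% of the gene's TPM, against 78.1% for Col6a2-201. For Col16a1 it was 185 bases long, from Col16a1-201.
Col12a1 site at base 187: aatgacacaagGGCAGTGgtgtccgcctg
Col12a1 site at base 1330: cccaggccctgGGCAGTGaacctgaaatc

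RefSeq promoter windows, 250 bases before to 50 bases after a start, were found for 8 of the 10 genes. Those of Col4a1 and Col4a2 are shown because the genes of this trimer start next to each other. Their RefSeq starts lay 21 bases apart on opposite strands, and the windows shared 78 bases. Col4a1 lies on the minus strand (chromosome 8, 11198423 to 11312826, ENSMUSG00000031502) and Col4a2 on the plus strand (chromosome 8, 11312805 to 11449287, ENSMUSG00000031503). Capitals mark the CCAAT motif and the GC box GGGCGG, each searched on both strands, as were the TATA motif TATAAA and the AP-1 motif TGACTCA, and in the windows shown no motif overlapped another. Of 32851 windows, 37.4% held the CCAAT motif, 35.7% the GC box, 13.6% the TATA motif and 5.2% the AP-1 motif.
Col4a1, chr8:11312777-11313076, minus strand: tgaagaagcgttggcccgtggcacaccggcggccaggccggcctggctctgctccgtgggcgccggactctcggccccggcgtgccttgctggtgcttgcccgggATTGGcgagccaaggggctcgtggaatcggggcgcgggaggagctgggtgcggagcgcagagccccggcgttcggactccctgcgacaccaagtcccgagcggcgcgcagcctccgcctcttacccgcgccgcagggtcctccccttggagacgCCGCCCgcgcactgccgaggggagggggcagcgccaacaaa
Col4a2, chr8:11312555-11312854, plus strand: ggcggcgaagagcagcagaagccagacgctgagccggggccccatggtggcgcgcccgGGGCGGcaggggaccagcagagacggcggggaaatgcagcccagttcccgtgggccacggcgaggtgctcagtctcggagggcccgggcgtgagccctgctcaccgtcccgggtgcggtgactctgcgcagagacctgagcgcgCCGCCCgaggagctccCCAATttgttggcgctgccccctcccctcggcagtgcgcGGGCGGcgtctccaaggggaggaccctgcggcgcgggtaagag

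The Col4a1 window held 1 CCAAT motif and 1 GC box, and the Col4a2 window 1 and 3. The GC box of the Col4a1 window lies in the bases that the windows share, so it is also 1 of the 3 in the Col4a2 window. Neither held the TATA or the AP-1 motif. Their GC contents were 74.0% and 73.7%, against a median of 52.7% over all windows. They held 37 and 33 CpG dinucleotides, against a median of 7.

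Col18a1 (chromosome 10, 77052178 to 77166548, minus strand, ENSMUSG00000001435) has a pair of promoters in RefSeq, both shown because the transcripts that start at each had separate values in the table. The upstream window held 1 CCAAT motif and 3 GC boxes with 16 CpG dinucleotides. The downstream window held none of the 4 motifs and 6 CpG dinucleotides.
Col18a1 upstream, chr10:77166481-77166780, minus strand: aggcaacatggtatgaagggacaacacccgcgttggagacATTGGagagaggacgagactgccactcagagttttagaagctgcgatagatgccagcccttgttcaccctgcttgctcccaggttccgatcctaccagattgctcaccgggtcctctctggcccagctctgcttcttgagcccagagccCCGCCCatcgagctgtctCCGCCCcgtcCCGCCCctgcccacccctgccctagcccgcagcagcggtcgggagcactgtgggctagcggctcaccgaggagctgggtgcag
Col18a1 downstream, chr10:77113656-77113955, minus strand: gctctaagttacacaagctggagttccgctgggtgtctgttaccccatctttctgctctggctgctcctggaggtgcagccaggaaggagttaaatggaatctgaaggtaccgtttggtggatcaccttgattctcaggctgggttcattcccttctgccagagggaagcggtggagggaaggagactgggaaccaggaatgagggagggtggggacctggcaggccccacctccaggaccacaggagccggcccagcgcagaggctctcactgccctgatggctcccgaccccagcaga

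The transcript from the upstream start, Col18a1-202, carried 81.2% ± 12 of the gene's TPM (mean ± SD, n = 10), between 60.5% and 93.2% in single mice. The 2 transcripts from the downstream start together carried 9.38% ± 2.15, and they were above 0 in all 10 mice. Other transcripts of the gene carried the rest. In each library most Col18a1 signal was thus assigned to the upstream transcript. Reads from a stretch that these transcripts share cannot be assigned with certainty to either start. The share of Col18a1-202 was 83.8% in wild-type and 78.7% in null mice (exact permutation test, two-sided, p = 0.516), a difference inside the spread between mice.

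The beaded-filament genes were the most abundant of the collagens described. Over the 10 mice Col6a2 averaged 46.1 ± 22.7 TPM, Col6a1 42.4 ± 21.6 TPM and Col6a3 41.6 ± 23.1 TPM (SD). Col4a1 followed at 30.6 ± 11 TPM, then Col12a1 at 17.1 ± 10, Col16a1 at 13.9 ± 9.02, Col4a2 at 11.9 ± 4.05 and Col15a1 at 10.7 ± 5.46 TPM. Col14a1, at 4.08 ± 2.31 TPM, and Col18a1, at 2.81 ± 0.779 TPM, were the lowest. Neighbours in the order of mean log2(TPM + 1) were compared within mice (exact sign-flip permutation test, two-sided, Benjamini-Hochberg adjustment over the 9 neighbouring pairs). Col6a2 exceeded Col6a1 by 0.13 on the log2 scale, in 9 of 10 mice (exact adjusted p = 0.0117). Col4a1 exceeded Col12a1 by 0.92 and Col15a1 exceeded Col14a1 by 1.2, each in 10 of 10 mice (exact adjusted p = 0.00879 for both). The other 6 neighbouring pairs did not differ beyond the spread between mice, with exact adjusted p-values of 0.0967 to 0.586.

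The plot of single mice shows how widely these levels ranged. The highest mouse exceeded the lowest by 2.83-fold for Col18a1, 3.2-fold for Col4a2, 3.4-fold for Col4a1 and 6.57-fold for Col14a1. Wild-type replicate 1 was the highest of the 10 mice for 8 of the 10 genes, all but Col14a1 and Col18a1, which were highest in null replicate 3. Null replicate 5 was the lowest for 6 genes. Null replicate 3 was the highest null mouse for 9 genes, Col15a1 being the exception.

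**Figure D1:**
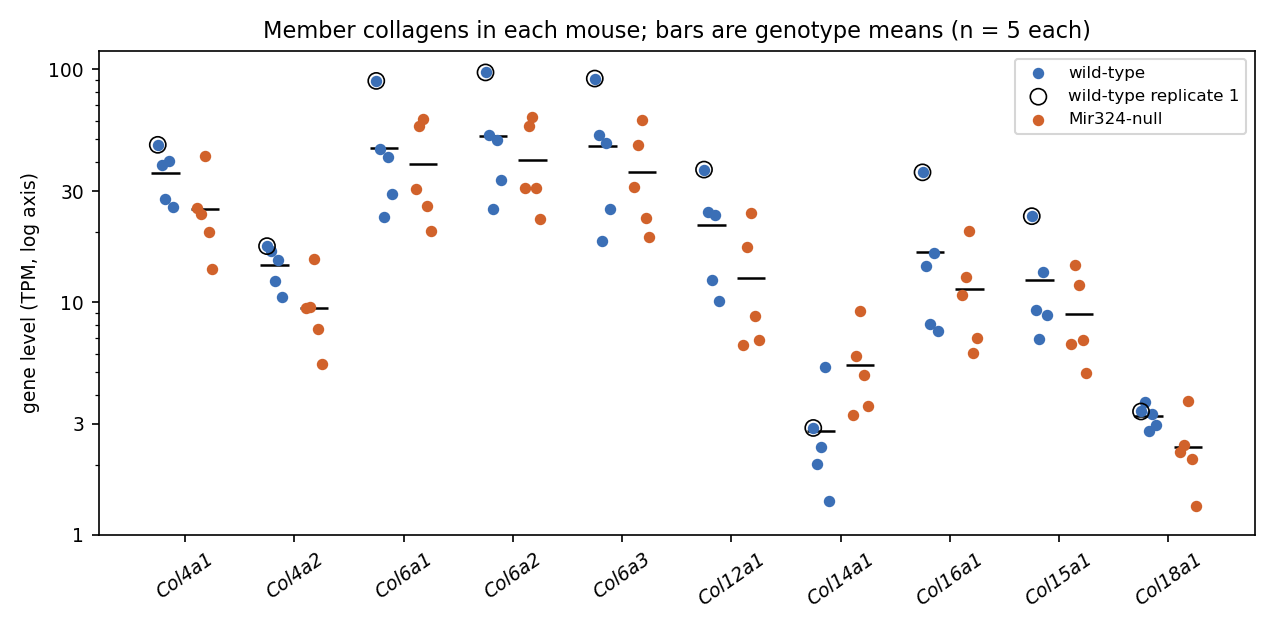
Gene level in TPM on a log axis for each collagen, 1 point per mouse, wild-type in blue and Mir324-null in orange, with bars at the genotype means (n = 5 each) and rings around wild-type replicate 1. The genotypes overlap for all 10 genes, and the ringed mouse is the highest for 8 of them.

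A large part of the signal of 6 of these genes sat in short annotated transcripts near the gene's 3′ end, and this sets how the levels can be read. The table gives a value per transcript, and a TPM assigned to a short model counts more per read than one assigned to a full-length model. Transcripts under 50% of the longest coding length carried 70.3% ± 2.87 of the Col6a3 signal, 69.6% ± 3 of Col12a1, 67.7% ± 6.18 of Col16a1, 65.0% ± 5.64 of Col15a1, 52.4% ± 9.17 of Col14a1 and 50.9% ± 4.56 of Col4a1 (SD, n = 10). In the other 4 genes their mean share was at most 9.37%. That was in Col18a1, where the SD was 12 and the highest mouse was at 33.7%. Over 12660 coding genes tested the median was 8.96%, and 19.5% of genes exceeded 40%, as these 6 did.

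**Figure D2:**
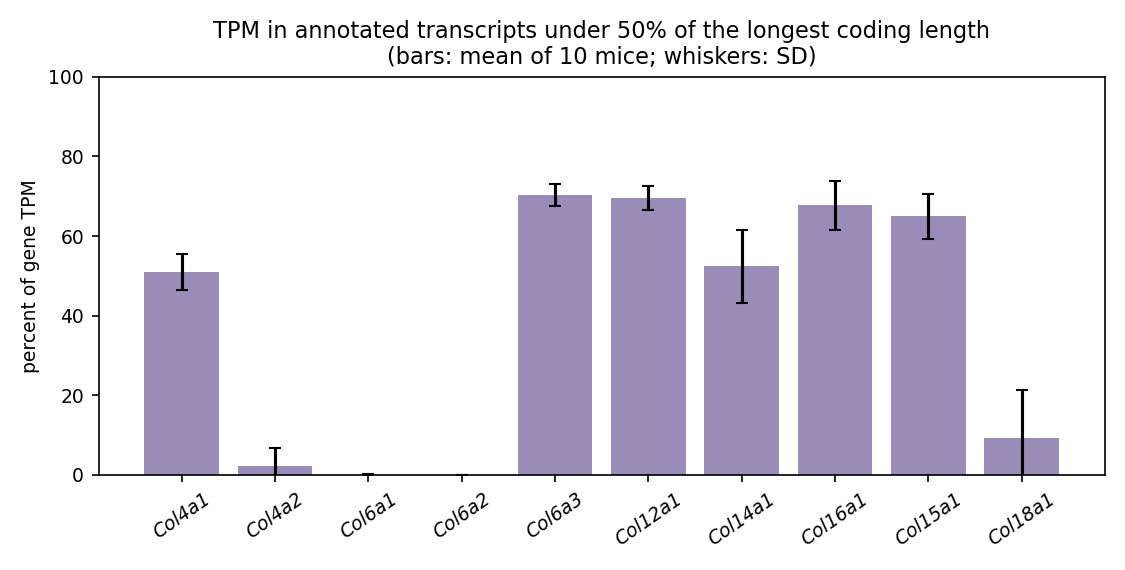
Percent of each gene's TPM in annotated transcripts under 50% of the length of its longest coding transcript, as the mean of 10 mice with SD whiskers. Col6a3, Col12a1, Col16a1 and Col15a1 have values of 65.0% to 70.3%, while Col6a1 and Col6a2 are at or near 0.

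Single models show the pattern. The model Col6a3-206 is annotated as a retained intron of 646 bases, 6.39% of the longest coding length. It carried 67.5% ± 4.70 of the Col6a3 signal, and the 9001-base coding transcript Col6a3-202 carried 27.6% ± 2.61 (SD, n = 10). The Col12a1-204 model of 1784 bases, which ends where the gene ends, carried 67.7% ± 3.1, and the 11511-base Col12a1-201 carried 29.8% ± 2.82. For Col16a1, an 833-base noncoding model, Col16a1-207, carried 56.3% ± 10.6. The 3′ ends of the 6 short models with a share of at least 10% lay 0 to 1466 bases from the 3′ end of their gene. Reads from a stretch that a short and a long model share cannot be assigned with certainty to either.

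Counting only coding transcripts at least 50% as long as the longest left Col6a2 at 45.8 ± 22.5 TPM and Col6a1 at 42.4 ± 21.6 TPM, but Col6a3 at 12.4 ± 6.94 TPM (SD, n = 10). Col4a1 was then at 12.3 ± 4.50 TPM beside Col4a2 at 11.7 ± 4.14 TPM. Col12a1 was at 5.10 ± 2.71, Col15a1 at 3.62 ± 1.51, Col16a1 at 2.70 ± 1.30 and Col14a1 at 1.89 ± 1.04 TPM. On this count Col6a1 exceeded Col6a3 by 1.72 on the log2 scale (exact adjusted p = 0.00439), so the near-equal level of the collagen VI chains depended on the short Col6a3 model.

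The transcript make-up of the genes was compared between genotypes. Tested were the 18 transcripts that held at least 10% of their gene's TPM on average. In exact permutation tests with Benjamini-Hochberg adjustment, 0 of the 18 had an adjusted p under 0.05 and 0 an unadjusted p under 0.05, the smallest unadjusted exact p being 0.175. That smallest value belonged to Col4a1-206, a 1170-base model of the 3′ part of Col4a1, at 49.6% ± 6.95 in wild-type and 44.2% ± 4.03 in null mice (SD, n = 5). The 9001-base Col6a3-202 was at 28.0% ± 2.47 and 27.2% ± 2.97, and Col12a1-201 at 29.8% ± 3.88 and 29.9% ± 1.66 (SD, n = 5). The largest difference was in Col14a1-201, a full-length form, at 27.8% ± 11.5 and 37.1% ± 11.7 (exact permutation p = 0.238). Col14a1-202, of the same length, differed by -8.86 points (exact permutation p = 0.310), and reads cannot be assigned with certainty to either. In wild-type replicate 1 each held 14.9%, while in null replicate 3 Col14a1-201 held 45.4% and Col14a1-202 0.000105%. Transcripts under 50% of the longest coding length held 52.2% of Col14a1 in wild-type and 52.5% in null mice. The difference thus lay in the split between the longer models and not in their joint share.

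The genotype comparison asked which of these collagens differ in cartilage without miR-324. In limma with Benjamini-Hochberg adjustment over all 13841 genes tested, 0 of the 10 had an adjusted p under 0.05, as had 0 genes in all (0% of those tested). The adjusted p-values of the 10 lay between 0.354 and 0.909. At an unadjusted p under 0.05, 1 collagen was lower in null mice, Col4a2, against 7.3% of all genes, and 1 was higher, Col14a1, against 4.28%. Estimates were below 0 for 9 of the 10, with a median of -0.38 on the log2(TPM + 1) scale, where 60% of all genes were below 0 and their median was -0.045. Without wild-type replicate 1, Col6a1 (0.074) and Col6a3 (0.0059) were above 0 as well. The direction split of all genes depended on scaling. Where 1011 genes were lower and 592 higher at an unadjusted p under 0.05, median ratio scaling gave 888 and 875, quantile normalization 929 and 884, and rescaling without haemoglobin genes 577 and 1216. Under each of these, 9 of the 10 collagens stayed below 0, and Col4a2 and Col14a1 were again the pair at an unadjusted p under 0.05. In 0 of the 10 did the genotypes separate without overlap, against 1.94% of all genes.

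Among the network chains, Col4a1 measured 47.4, 38.8, 27.7, 40.3 and 25.6 TPM in wild-type replicates 1 to 5 and 25.4, 24, 42.6, 20 and 13.9 TPM in null replicates 1 to 5. All null mice but replicate 3 were below every wild-type mouse. The change was -0.55 (SE 0.26, 95% interval -1.12 to 0.015, limma adjusted p = 0.441). Col4a2 measured 17.4, 16.5, 12.3, 15.2 and 10.5 TPM in wild-type and 9.42, 9.51, 15.3, 7.70 and 5.44 TPM in null mice. Here too the 4 null mice other than replicate 3 lay below the lowest wild-type mouse. Its change was -0.60 (SE 0.22, 95% interval -1.09 to -0.11, limma p = 0.0208, adjusted p = 0.354, exact permutation p = 0.0476). Without null replicate 3 the changes were -0.76 for Col4a1 and -0.78 for Col4a2 (limma unadjusted p = 0.00506 and 0.00183), and neither passed adjustment. Without null replicate 5, the lowest mouse for both, they were -0.37 and -0.44, and the unadjusted limma p of Col4a2 was 0.0512. Without wild-type replicate 1, the highest mouse for both, they were -0.44 and -0.53 (limma unadjusted p = 0.127 and 0.0492).

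For the beaded-filament chains the genotype difference was smaller than the spread between mice. Col6a1 measured 89.2, 45.5, 23.2, 42.1 and 29 TPM in wild-type and 30.6, 57.3, 60.9, 26 and 20.3 TPM in null mice. The null values fall within the wild-type range except replicate 5. Means were 45.8 ± 25.9 and 39.0 ± 18.8 TPM (SD, n = 5), a change of -0.20 (SE 0.38, limma adjusted p = 0.909). Col6a2 averaged 51.5 ± 27.8 and 40.8 ± 17.6 TPM (change -0.28, 95% interval -1.06 to 0.50). Col6a3 averaged 47.1 ± 28.7 and 36.2 ± 17.3 TPM (change -0.28, 95% interval -1.2 to 0.64). With 5 mice a genotype, these intervals leave room for a difference in either direction. Without wild-type replicate 1, the changes of Col6a1, Col6a2 and Col6a3 were 0.074, -0.022 and 0.0059.

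The fibril-associated collagens XII and XIV had estimates of opposite sign. Col12a1 measured 37.1, 24.4, 12.4, 23.7 and 10.1 TPM in wild-type and 6.52, 17.2, 24.1, 8.72 and 6.85 TPM in null mice. Null replicates 1, 4 and 5 lay below all wild-type mice, and replicates 2 and 3 within their range. The difference was -0.75 (SE 0.40, limma adjusted p = 0.509, exact permutation p = 0.143). Leaving out wild-type replicate 1 gave -0.53, and leaving out null replicate 3 gave -1.01. Col14a1 measured 2.88, 2.01, 2.38, 5.28 and 1.40 TPM in wild-type and 3.27, 5.89, 9.20, 4.86 and 3.59 TPM in null mice. All 5 null mice were above the wild-type mean, and they overlapped the wild-type mice through wild-type replicate 4 alone. The change of Col14a1 was 0.75 (SE 0.29, 95% interval 0.13 to 1.38, limma p = 0.0225, adjusted p = 0.358, exact permutation p = 0.0476). It was 0.95 without wild-type replicate 4 and 0.56 without null replicate 3, where the unadjusted limma p was 0.0586. The unadjusted limma p was also over 0.05 without wild-type replicate 2 (change 0.69) or 5 (change 0.61). Col16a1 averaged 16.4 ± 11.6 and 11.4 ± 5.66 TPM (SD, n = 5, change -0.39, limma adjusted p = 0.788). Leaving out wild-type replicate 1 gave -0.066, and the change was 0.0094 when only long coding transcripts were counted.

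As a ratio within each library, a measure chosen after its values were seen and given without a test, Col14a1 to Col12a1 was 0.0776, 0.0824, 0.192, 0.223 and 0.139 in wild-type replicates 1 to 5. It was 0.502, 0.342, 0.382, 0.557 and 0.523 in null replicates 1 to 5. Every null mouse was above every wild-type mouse, wild-type replicate 1 and null replicate 3 included. The means were 0.143 ± 0.0649 and 0.461 ± 0.094 (SD, n = 5), a log2 difference of 1.79. With Col12a1 as the reference, 0.423% of 13483 genes above 0 in all mice separated in this direction. Of the 9 ratios of Col14a1 to another of the collagens, 3 separated so. The others were to Col15a1, where 0.185% of genes separated, and to Col4a2, where 1.56% did and the nearest mice of the genotypes were equal at 0.347 to the digits given. For the references that did not separate Col14a1, the shares were 0.616% (Col4a1), 0.0742% (Col6a1), 0.104% (Col6a2), 0.0816% (Col6a3), 0.111% (Col16a1) and 0.957% (Col18a1). Beside this, of the 8 fibroblast markers 5 had estimates above 0 and 3 below, from 1.13 (Clec3b) to -0.41 (Pdgfra), with 0 at an unadjusted limma p under 0.05. Their part in the ratio was not tested.

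Of the multiplexins, Col15a1 had means of 12.4 ± 6.62 TPM (wild-type) and 8.93 ± 3.98 TPM (null; SD, n = 5, change -0.40, limma adjusted p = 0.703), and leaving out wild-type replicate 1 gave -0.16. Col18a1 measured 3.39, 3.72, 2.80, 3.31 and 2.98 TPM in wild-type and 2.28, 2.43, 3.77, 2.11 and 1.33 TPM in null mice. Its wild-type mice were the most alike of any of the 10 genes, with a coefficient of variation of 11.1%, and all null mice but replicate 3 lay below them. The change was -0.36 (SE 0.18, limma adjusted p = 0.475, exact permutation p = 0.0635). It was -0.49 without null replicate 3 and -0.23 without null replicate 5.

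**Figure D3:**
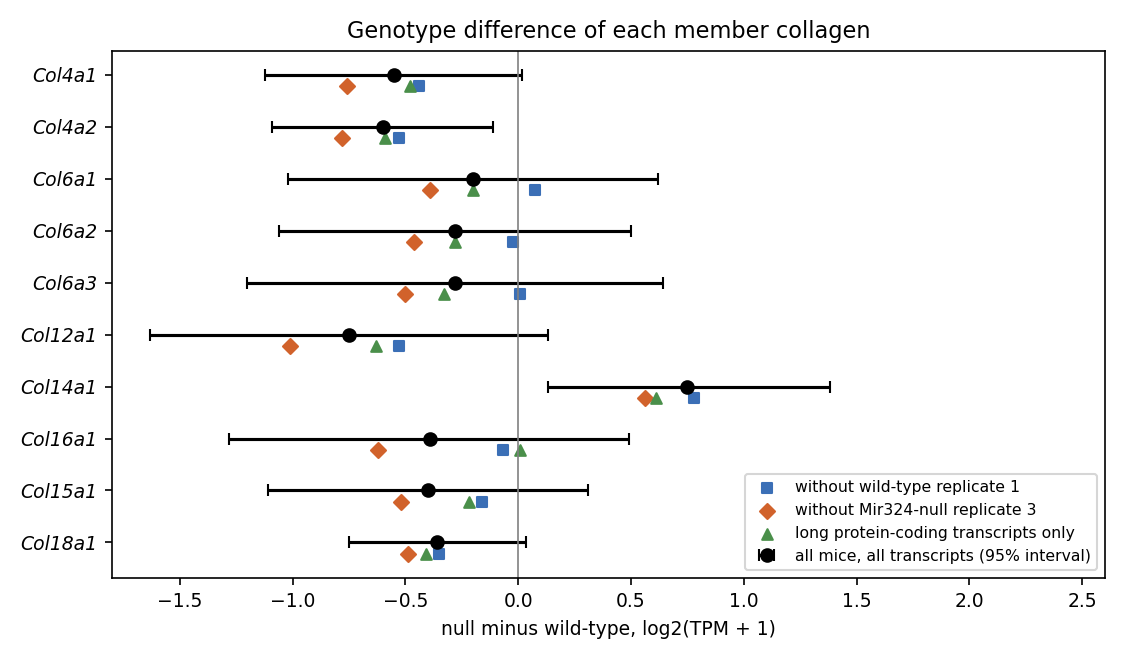
Difference between genotypes in log2(TPM + 1), null minus wild-type, for each collagen, with the estimate from all 10 mice in black and its 95% interval, and estimates without wild-type replicate 1 (squares), without Mir324-null replicate 3 (diamonds) and with long coding transcripts only (triangles). Col14a1 alone has an interval above 0 and Col4a2 alone one below 0, and the collagen VI estimates lie between -0.022 and 0.074 without wild-type replicate 1.

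Chains that share a trimer were compared by the ratio of their TPM within a library, which does not depend on the library total. The Col4a1 to Col4a2 ratio was 2.56 ± 0.168 over the 10 mice (SD), with a range of 2.26 to 2.77, although Col4a1 alone ranged over 3.4-fold. It was 2.48 ± 0.197 in wild-type and 2.63 ± 0.103 in null mice (SD, n = 5). The difference of 0.087 on the log2 scale was within the spread (exact permutation p = 0.167, adjusted over the 4 ratios 0.365). With protein-coding transcripts only, it was -0.0039. With long coding transcripts only, Col4a1 averaged 12.3 TPM and Col4a2 11.7 TPM. The level of the ratio thus depended on the other Col4a1 transcripts.

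The Col6a1 to Col6a2 ratio was 0.914 ± 0.0610 (SD, n = 10), with 0.887 ± 0.0364 in wild-type and 0.941 ± 0.0722 in null mice. That ratio ranged over 1.2-fold while the genes ranged over 4.4-fold and 4.25-fold. Ratios to Col6a3 were looser, at 1.05 ± 0.137 for Col6a1 and 1.16 ± 0.153 for Col6a2. None of the 4 ratios passed the exact permutation test between genotypes (adjusted p = 0.365, 0.365, 0.688 and 0.984), and 0 had an unadjusted exact p under 0.05. Col6a1 (chromosome 10, 76708792 to 76726168) and Col6a2 (chromosome 10, 76595762 to 76623630) lie on the minus strand 85161 bases apart, while Col6a3 (90765923 to 90843971) is on chromosome 1.

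**Figure D4:**
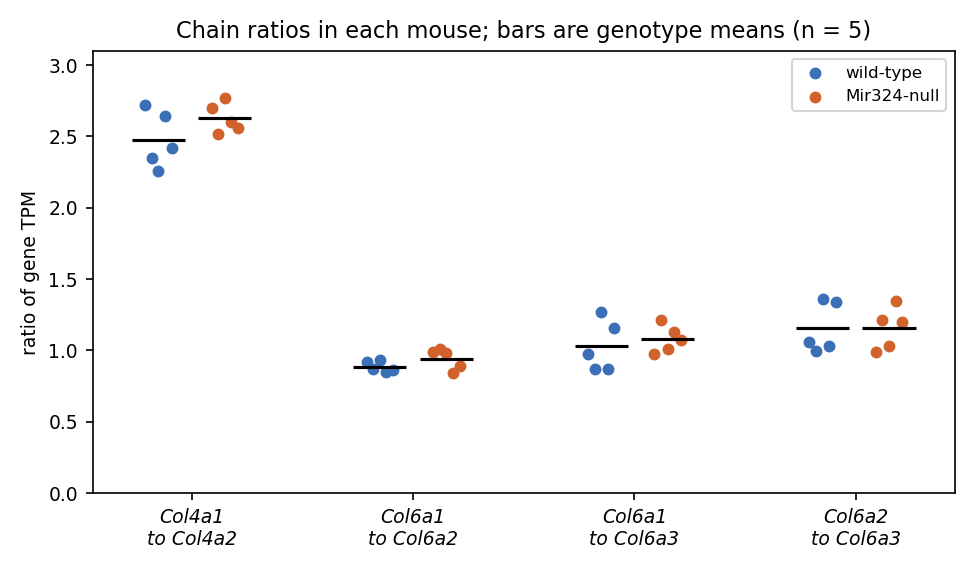
Ratio of gene TPM between chains of collagen IV and of collagen VI, 1 point per mouse, wild-type in blue and Mir324-null in orange, with bars at the genotype means (n = 5). With all transcripts counted, the Col4a1 to Col4a2 ratio lies between 2.26 and 2.77 in all 10 mice. The Col6a1 to Col6a2 ratio lies between 0.841 and 1.01.

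The collagens also varied together between mice of one genotype. After each genotype's mean was subtracted, all 45 pairs correlated positively over the 10 mice, with Pearson's r from 0.555 to 0.993 and a median of 0.838. Of these, 36 passed a permutation test within genotypes with Benjamini-Hochberg adjustment over the 45 pairs, and 38 by Spearman's rho. Counting only long coding transcripts, 21 passed by Pearson's r. Without the 2 mice farthest from the median of the first gene of each pair, the median r was 0.812. For scale, 10.7% of 13819 other genes had r of at least 0.8 with the mean of the collagen VI chains, 10.8% with the multiplexin mean, 8.05% with the fibril-associated mean and 4.1% with the collagen IV mean. All these values share the library, so its composition can move them together, and the part of this in the correlations was not tested.

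Trimer partners were the closest pairs. Col6a1 and Col6a2 had r = 0.993 and rho = 1 (permutation p = 6e-05 for both, adjusted 0.0009, near the smallest the 14400 arrangements within genotypes allow), and r = 0.985 without null replicate 3 and wild-type replicate 1. For Col6a2 and Col6a3, r was 0.979 and rho 1 (permutation p = 6e-05 for both, adjusted 0.0009), and r was 0.959 without those 2 mice. Col4a1 and Col4a2 had r = 0.988 and rho = 0.964 (permutation p = 0.00037 and 0.0006, adjusted 0.00416 and 0.00602), with r = 0.966 without null replicates 3 and 5. Col18a1 had its highest r with Col4a2, at r = 0.945 and rho = 0.903 (permutation p = 0.00141 and 0.00207, adjusted 0.0046 and 0.00627), and r = 0.832 without the same 2 mice. Its rho to each of Col6a1, Col6a2 and Col6a3 was also 0.903, at r of 0.711 to 0.725. Without wild-type replicates 1 and 3, its r to Col6a3 was 0.864. Its r to the other multiplexin, Col15a1, was 0.583 and rho 0.782 (permutation p = 0.0598 and 0.0179, adjusted 0.069 and 0.0229), with r = 0.832 without null replicate 2 and wild-type replicate 1. Col15a1 instead was closest to Col6a1, at r = 0.949 and rho = 0.915 (permutation p = 0.00089 and 0.00159, adjusted 0.0046 and 0.00602), with r = 0.908 without null replicate 3 and wild-type replicate 1. Whether these correlations differ from one another was not tested.

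Col14a1 was the least tied to the others. Its r lay between 0.555 and 0.751, and 1 of its 9 pairs had an adjusted permutation p under 0.05, that with Col12a1 (r = 0.751, rho = 0.806, permutation p = 0.0223 and 0.0150, adjusted 0.0286 and 0.0211). That r was 0.694 without wild-type replicate 1 and null replicate 3, and its adjusted p was over 0.05 without wild-type replicate 5 or null replicate 1, 3, 4 or 5 (r = 0.635 to 0.757). With long coding transcripts only, r was 0.539 (permutation test, adjusted p = 0.174). All 28 pairs among the 8 genes other than Col14a1 and Col18a1 passed.

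**Figure D5:**
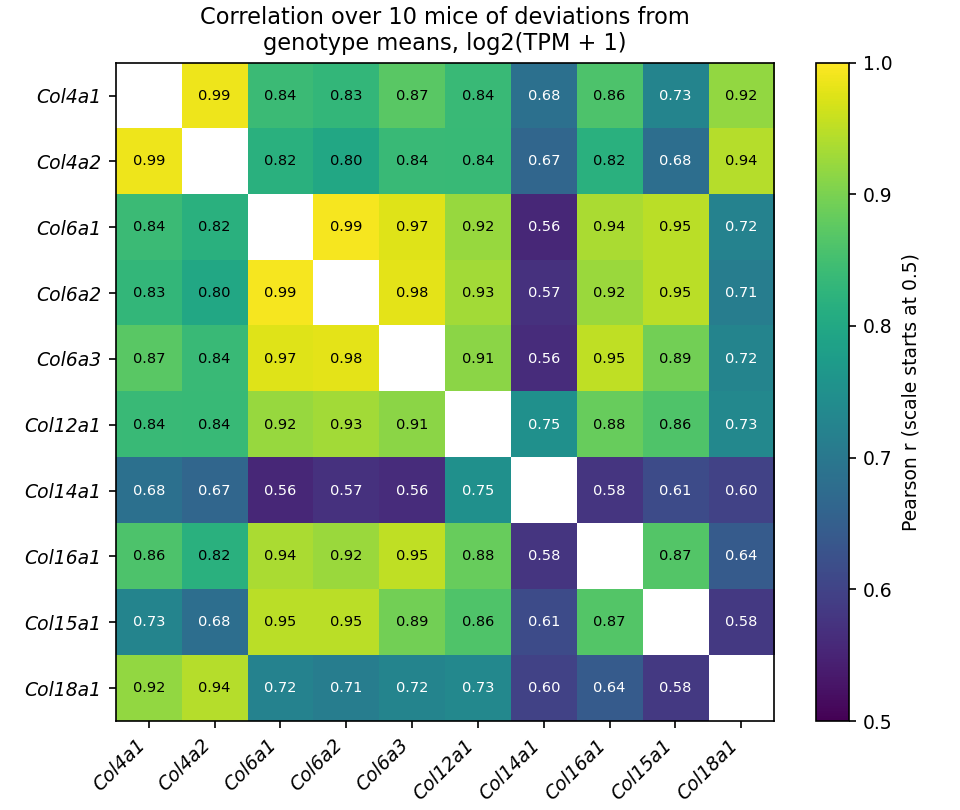
Pearson's r for each pair of collagens over 10 mice, computed on log2(TPM + 1) after each genotype's mean was subtracted, with the color scale starting at 0.5. The collagen VI chains form the block with the highest values, up to 0.993, and the Col14a1 row and column hold values of 0.555 to 0.751.

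Genes outside the group with the most similar course over the 10 mice were named by rank of r, as a description with no test, since they were picked as the best of 13819. For the mean of the collagen IV chains they were Tspan18 (r = 0.976), Slc39a7, Rbfox2, Calml3 and Ehd2 (r = 0.955). Ehd2 encodes a protein of caveolae, the small membrane pits of endothelium and fat. For the collagen VI mean they were Fcor (r = 0.991), Slc39a14, Fbxo32, Anxa5 and Tgfb3 (r = 0.983), of which Anxa5 encodes annexin A5 and was the most abundant, at 215 ± 44.2 TPM. For the fibril-associated mean they were Cd109 (r = 0.992), Myo1d, Daam2, Fhl2 and Lhfp (r = 0.979). For the multiplexin mean they were Yap1 (r = 0.996, rho = 1), which encodes a coactivator of the Hippo pathway, then Igsf10, Arl6ip5, Ptprk and Nbl1 (r = 0.979).

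Other genes of the same matrix were counted from 5 lists. Of 4 further collagen IV chains, Col4a3 to Col4a6, 0 reached a mean of 1 TPM, and their sum lay between 0.216 and 0.859 TPM in single mice. Col4a1 and Col4a2 together summed to 19.4 to 64.8 TPM. Of 17 laminins and basement membrane linkers, 11 were tested, with 10 estimates below 0 and a median of -0.35. At an unadjusted limma p under 0.05, 2 were lower and 0 higher, against 7.3% and 4.28% of all genes, and 0 passed adjustment. Those 2 were Lamc1, the common laminin γ1 chain, at 14.5 ± 4.05 and 9.52 ± 1.97 TPM (SD, n = 5, change -0.54, limma adjusted p = 0.338), and Lama4, a laminin chain of vessels and fat, at 14.1 ± 6.20 and 7.96 ± 2.43 TPM (change -0.69, limma adjusted p = 0.380). Under the 3 other scalings 9 of the 11 were below 0.

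Of 11 other beaded and fibril-associated collagens, 10 were in the table and 3 were tested. Col9a2, a chain of the cartilage fibril coat, averaged 12.6 ± 5.66 and 5.93 ± 1.35 TPM (SD, n = 5, change -0.89, limma adjusted p = 0.316), with each of the 5 null mice under the mean of the controls. The alternative collagen VI chains Col6a4, Col6a5 and Col6a6 averaged at most 0.128 TPM in either genotype. All 11 collagen receptors were tested, with 10 estimates below 0, a median of -0.34 and 1 gene lower at an unadjusted limma p under 0.05, near the 7.3% of all genes. That was Antxr1, a cell-surface receptor for collagen VI, at 12.3 ± 2.89 and 8.80 ± 2.34 TPM (SD, n = 5, change -0.44, limma adjusted p = 0.398). With haemoglobin genes left out of the scaling, 0 of the 11 had an unadjusted limma p under 0.05.

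The 10 fibril surface partners were split, with 5 estimates below 0 and 5 above and a median of -0.089. At an unadjusted limma p under 0.05, 2 were lower and 1 higher, against 7.3% and 4.28% of all genes, and 0 passed adjustment. Postn, which encodes periostin, averaged 40.3 ± 18.1 and 17.5 ± 6.92 TPM (SD, n = 5, change -1.12, limma adjusted p = 0.305). Tnc, encoding tenascin C, averaged 134 ± 39.1 and 78.8 ± 25.9 TPM (change -0.76, limma adjusted p = 0.319). Tnxb, encoding tenascin X, a partner of collagen fibrils in loose connective tissue, averaged 0.919 ± 0.543 and 2.18 ± 1.03 TPM (change 0.72, limma adjusted p = 0.343), with each of the 5 null mice over the mean of the controls.

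Summed marker levels of other cell types were set beside the collagens. For scale, 60% of all genes had estimates below 0, 7.3% were lower and 4.28% higher at an unadjusted limma p under 0.05, and 0 markers passed adjustment. The 10 endothelial markers summed to 194 to 265 TPM in wild-type and 167 to 222 TPM in null mice, with 10 of 10 estimates below 0 (9 of 10 when rescaled without haemoglobin genes), 3 of them at an unadjusted limma p under 0.05 (7.3% of all genes) and 0 markers at 0 in any mouse. The 8 mural markers, of pericytes and smooth muscle, summed to 67.1 to 102 and 44.4 to 77.9 TPM, with 7 of 8 estimates below 0 and 4 at an unadjusted limma p under 0.05. The 6 adipocyte markers summed to 139 to 237 and 92 to 208 TPM, with 5 of 5 tested below 0, 4 of them at an unadjusted limma p under 0.05, and Lep at 0 in some mice. Under each of the 3 other scalings, 3 adipocyte markers were lower at that threshold. Among null mice the sum of Col4a1 and Col4a2 was highest in replicate 3 and lowest in replicate 5. The adipocyte, fibroblast, synovial and chondrocyte marker sums had the same highest and lowest null mice, as had the laminin, receptor and fibril partner sums. The endothelial sum was highest in null replicate 2, at 222 TPM, with replicate 3 at 219 TPM. It was lowest in null replicate 5, with replicate 4 also at 167 TPM to the digits given. The mural sum was highest in null replicate 3 (77.9 TPM) and lowest in replicate 4 (44.4 TPM), with replicate 5 at 47.1 TPM. The part of these cells in the collagen IV and Col18a1 values was not tested.

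The 8 fibroblast markers summed to 295 to 461 TPM in wild-type and 280 to 522 TPM in null mice, with 3 estimates below 0 (2 with median ratio scaling and without haemoglobin genes) and 5 above. The sum was highest in null replicate 3, the mouse with the most Col14a1, and Mfap5 was at 0 in some mice. Gsn, at a mean of 275 TPM and a change of -0.043, made up most of the fibroblast sum. Tendon and perichondrium markers summed to 17.3 to 104 and 20.7 to 85.7 TPM, with 4 of 4 tested above 0 and Kera at 0 in some mice. The 6 synovial lining markers summed to 1612 to 5141 and 1394 to 2416 TPM. Prg4, at a mean of 2320 TPM, made up most of that sum and was the 1 gene with an estimate below 0 (-0.63). The other 5 estimates were above 0, 1 of them at an unadjusted limma p under 0.05. Skeletal muscle markers, with Myh4 and Myl1 at 0 in some mice, summed to 14.5 to 16.6 TPM in wild-type mice. They summed to 58.4 TPM in null replicate 2 and to 15 to 21 TPM in the other null mice. The part of these tissues in the Col14a1 value was not tested.

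The 9 chondrocyte markers summed to 760 to 1855 and 700 to 921 TPM, with 7 of 7 tested below 0, a median of -0.66, 5 lower at an unadjusted limma p under 0.05 (7.3% of all genes) and Matn3 at 0 in some mice. Rescaled without haemoglobin genes, 3 of these 7 were lower at that threshold. The 9 osteoblast and osteocyte markers summed to 2656 to 6430 and 1498 to 2858 TPM, with 9 of 9 below 0, a median of -0.87 and 7 lower at an unadjusted limma p under 0.05. Under each of the 3 other scalings, 5 of the 9 were lower at that threshold. Erythroid markers summed to 75226 to 133411 and 107254 to 176495 TPM, with 7 of 7 above 0 and 6 higher at an unadjusted limma p under 0.05 (1 of 7 was below 0 after quantile normalization). With median ratio scaling, 4 erythroid markers were higher at that threshold. Wild-type replicate 1 had the highest sum of the chondrocyte, osteoblast, endothelial, synovial and tendon lists and the lowest erythroid sum. It was also the highest mouse for the collagen VI chains, and the part of tissue make-up in that was not tested.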

How the data were processed

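RNA sequencing libraries from the medial knee cartilage cap of 10 mice, 5 wild-type and 5 Mir324-null, were compared. The authors deposited 1 table of TPM values per transcript, made with kallisto per the submitters' processing notes, which give no version. The notes list the build GRCh38, although the identifiers in the table are those of mouse transcripts. The index used was not given in the sources used here. Each column summed to 1000000, so sequencing depth is unknown and no count model, counting interval or detection floor was computed.

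Transcript identifiers were matched without version numbers to GENCODE M21 (GRCm38). Of 116912 transcripts, 115440 matched, 13 of them with the same version number. The others held 0.275% to 0.356% of a library's TPM. TPM was summed per gene. The 13841 genes whose mean reached 1 TPM were fitted as log2(TPM + 1) with limma 3.58.1 in R 4.3.3 (trend, no covariate, two-sided, Benjamini-Hochberg adjustment over all of them). The added 1 makes changes of weakly expressed genes look smaller. On simulated data for 13841 genes the fit recovered 81% of genes changed by 1 on the log2 scale and 99% of those changed by 2, with 12 false calls. The simulation drew each gene independently of the others and changed only genes with a mean log2(TPM + 1) above 2. The collagens varied together between mice, so these shares do not give the chance of detecting such a change in them. Ratios and shares were tested with exact permutation tests (5 against 5, smallest p 0.00794), neighbouring levels with an exact sign-flip permutation test within the 10 mice (smallest p 0.00195), and correlations with 100000 permutations within genotypes, in Python 3.11.15 with scipy 1.17.1.

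The collagens, the gene lists and the tests were chosen with earlier results of these data known. From each partner list, genes with an unadjusted p under 0.05 were named (at most 3 a direction). Of marker lists the most abundant gene could be named, and other marker genes are given as checks of the tissue. From each structural group the 5 genes of highest r were named. The labels do not say that mice sharing a replicate number are pairs, or that the libraries of a genotype come from separate litters. Alternatives were 3 other scalings, another pseudocount (0.1), other filters, robust moderation, a replicate block, each mouse left out and, added after the data were seen, long coding transcripts only.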

Additional observations from a re-analysis of the deposited data

Results flagged for a closer look

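In 6 cases a transcript's share of its gene had 1 mouse far from the other 4 of its genotype, a gap of more than 0.71 of the group's range. For normally distributed values chance flags about 1 in 20 groups, and 64 groups were examined. That rate does not hold for the flagged shares of Col6a1-201 and Col4a2-201. There the other mice of the genotype were at 100%, so any lower value is flagged. Shares of transcripts of the same gene also depend on each other. In wild-type replicate 1, Col4a1-201 held 27.4% of the Col4a1 signal, against 40.9% in the nearest wild-type mouse, and Col6a1-201 held 99.8% of Col6a1. In wild-type replicate 3, Col16a1-210 held 21.9% against 11.9% in the nearest mouse, Col6a3-202 held 32.3% against 27.7%, and Col4a2-201 held 87.1% against 100%. In null replicate 2, Col6a1-201 held 99.7%.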

How the results depend on the processing

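Of 788 values recomputed under an alternative setting, 724 were labelled the same, 33 reversed, 18 moved, 7 stronger and 6 weaker. For an estimate, the same means that it kept its direction and its side of the threshold. For a count, the same means within a set fold limit of the main value, and moved means beyond it. The 709 genes lower with a replicate block, in place of 1011, were thus labelled the same. No collagen passed adjustment under any alternative. Long coding transcripts only, a setting chosen after seeing the data, turned Col16a1 to 0.0094 and the Col6a2 to Col6a3 ratio to 0.079. They gave differences in level of 1.72 (Col6a1 minus Col6a3), -0.073 (Col6a3 minus Col4a1), 0.65 (Col12a1 minus Col16a1), -1.77 (Col16a1 minus Col4a2), 1.45 (Col4a2 minus Col15a1) and -0.34 (Col14a1 minus Col18a1), and 21 correlated pairs in place of 36. Protein-coding transcripts only gave -0.0039 for the Col4a1 to Col4a2 ratio and 0.12 for Col6a2 to Col6a3. With a mean of at least 5 TPM, Col14a1 was not tested and 0 collagens were higher. Rescaling without haemoglobin genes gave 577 genes lower and 1216 higher.

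The replicate block gave 2 collagens lower at an unadjusted p under 0.05 in place of 1, Col4a1 joining Col4a2, and 709 genes lower in place of 1011. The numbers did not pair the mice: same-numbered deviations correlated at -0.144 to 0.0564 and 0 of 5 wild-type mice correlated best with their own number.

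Leaving out 1 mouse at a time gave 0 to 4 collagens lower (4 without null replicate 3, 0 without null replicate 5), 0 to 1 higher, 620 to 1355 genes lower (620 without wild-type replicate 1, 1355 without null replicate 3) and 0 to 1 genes at an adjusted p under 0.05. The change ranged from -0.40 to 0.074 for Col6a1, -0.56 to 0.0059 for Col6a3 and, for the Col6a2 to Col6a3 ratio, -0.06 to 0.06. Level differences ranged from -0.016 to 0.16 (Col16a1 minus Col4a2), 0.27 to 0.44 (Col6a3 minus Col4a1) and 0.21 to 0.37 (Col12a1 minus Col16a1). Transcript shares changed sign within ranges, in percentage points, of -1.96 to 0.444 (Col12a1-204), -1.51 to 0.997 (Col12a1-201), -3.66 to 4.84 (Col14a1-204), -2.15 to 3.83 (Col4a1-201), -2.05 to 1.66 (Col4a2-201), -1.51 to 0.213 (Col6a3-202), -0.146 to 1.77 (Col6a2-201), -1.58 to 0.398 (Col6a2-202) and -0.0648 to 0.032 (Col6a1-201). The correlation of Col12a1 with Col14a1 had adjusted p-values over 0.05 without any 1 of wild-type replicate 5 and null replicates 1, 3, 4 and 5. Where a value changed, the cause was not tested. TPM keep no read numbers, so what depth limits is unknown.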
